A study of Mus musculus with 2 samples.

Results

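The profiles described here were hepatocyte profiles that also carried endothelial RNA, in livers of mice given carbon tetrachloride. They were taken from 2 single-cell libraries of fixed hepatocytes, one sorted as Tom- (p16low) and one as Tom+ (p16high). A profile is the set of transcripts counted under one cell barcode. Of 39559 barcodes, 21046 passed a gate of 5000 to 10000 detected genes, at most 100000 unique molecular identifiers (UMIs, each standing for 1 counted probe molecule) and at most 5% mitochondrial UMIs. The gated cells were ranked by the share of their UMIs that came from 6 endothelial genes (Pecam1, Stab2, Clec4g, Kdr, Ptprb and Egfl7), and the 600 highest were taken as members, 409 from the Tom- and 191 from the Tom+ library. The 6 genes chose the members, so their levels are a description. The last cell inside the cutoff had 32 such UMIs among 38852, and the first cell outside had 32 among 38879.

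Both libraries came from male p16-Tom mice on a C57BL/6 background, which were heterozygous and carried p16-CreERT2 with R26-CAG-LSL-tdTomato-WPRE, so that cells expressing p16 become tdTomato-positive after tamoxifen. All animals had received CCl4 for 4 weeks and tamoxifen, and neither library was untreated. The mice's age and the number of mice behind each library were not given in the sources used here. With 1 library in each group there was no replicate, no test was made between groups, and every interval below is a 95% interval of counting error only.

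The liver lobule is supplied at the portal triad and drained at the central vein. Hepatocytes along this axis express different enzymes, with gluconeogenesis and the urea cycle stronger near the portal end and xenobiotic and glutamine metabolism stronger near the central vein. The sinusoids between them are lined by a fenestrated endothelium that is itself graded along the axis. Endothelial cells near the central vein secrete Wnt2, Wnt9b and Rspo3, ligands and an enhancer of the Wnt pathway that maintain the pericentral programme of hepatocytes, while those near the portal end express more of the Notch ligand Dll4 and the ephrin Efnb2. The question of the comparison was whether the endothelial zone genes of a profile followed the hepatocyte zone of the same profile.

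The members carried hepatocyte RNA at about the level of the other gated cells or somewhat below it. Albumin reached a median of 112367 CPM (UMIs of a gene per 1000000 UMIs) in the Tom- members and 105889 in the Tom+ members, against 118268 and 107534 in the other gated cells. The lowest Alb level of any member was 28946 CPM (Tom-) and 33448 CPM (Tom+). Alb alone does not tell a hepatocyte here, since smaller profiles (under 5000 genes) with a higher endothelial share, a median of 2979 and 4601 CPM for the 6 genes, also had a median Alb of 105218 and 80188 CPM. A list of 15 hepatocyte genes differed from the other cells by -0.05 (Tom-) and -0.04 (Tom+) on the log2 scale. Alb gave 116120 and 108009 CPM of its sum in members. By gene the median was -0.05 and -0.13, with 4 and 3 of the 15 genes higher. The hepatocyte zone genes described below were lower, by -0.22 and -0.28 for 10 pericentral and by -0.24 and -0.17 for 10 periportal genes. The list of 15 hardly separates the smaller profiles either, which had 173201 and 156669 CPM of it against 178937 and 173487 in members. Hnf4a, a transcription factor of hepatocyte identity, stood at 562 CPM against 639 in the Tom- and at 515 against 601 in the Tom+ library. Members held fewer UMIs than other gated cells, with medians of 34197 against 40875 (Tom-) and 34393 against 45181 (Tom+). Total UMIs are the denominator of the share that ranked the cells, so the choice can set part of this difference. Cells of ranks 601 to 1200 had medians of 41585 and 47249 UMIs. When every cell was thinned to 10000 UMIs, the members held more genes, 3329 against 3112 (Tom-) and 3379 against 3167 (Tom+). Doublets were not called or removed, and how endothelial RNA came under the same barcode was not tested. The libraries shared 503 barcode sequences. Of the members, 8 in each library carried a shared one, and no barcode was a member in both.

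Members made up 3.65% of the gated Tom- cells (exact binomial interval 3.31 to 4.01%) and 1.94% of the gated Tom+ cells (1.68 to 2.24%). The libraries were sorted separately, so a difference in sorting and a difference in the liver cannot be told apart. The label of each library was checked with tdTomato, which stood at 78.0 CPM in the Tom- members and at 846 CPM in the Tom+ members. It stood at 63.8 and 738 CPM in the other gated cells of the 2 libraries.

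Endothelial genes that the choice had not used were also far higher in the members. A pan-endothelial list (25 measured genes) summed to 1174 CPM in the Tom- members against 175 in the other cells, and to 1177 against 162 in the Tom+ library, log2 differences of 2.75 and 2.86. A sinusoidal list (13 measured genes) reached 1782 against 249 CPM (Tom-) and 1680 against 200 CPM (Tom+), log2 differences of 2.84 and 3.07. Every member had UMIs of these lists, between 26 and 266 with a median of 102 in the Tom- library and between 38 and 345 with a median of 98 in the Tom+ library. In the other gated cells the median was 10 and 9 UMIs, and 33 and 47 cells had none. These genes are expressed in the same cells as the 6 genes of the choice and are not independent support for it.

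By gene, 22 of the 25 measured pan-endothelial genes and 12 of the 13 sinusoidal genes were at least 2-fold higher in the members of both libraries and reached 10 CPM in both. Over all genes that reached 10 CPM, 558 of 8359 (6.68%) did so. The median log2 difference was 3.02 and 3.25 over the pan-endothelial genes and 2.81 and 2.99 over the sinusoidal genes, against 0.06 and 0.05 over all 8359 genes. Cdh5, the endothelial cadherin of adherens junctions, rested at 29.2 CPM against 4.34 (Tom-) and 32.1 against 3.72 (Tom+). Dnase1l3, a secreted nuclease, lay at 319 against 42.0 CPM and at 280.0 against 30.5 CPM. The exception among the pan-endothelial genes over 10 CPM was S1pr1, a sphingosine-1-phosphate receptor, at 45.7 against 39.3 CPM (log2 0.22, interval 0.11 to 0.33) and 50.8 against 45.8 CPM (log2 0.15, interval reaching 0).

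Over all genes, list genes made up 7 of the 20 highest ratios. Of these, 1 was Egfl7, which was used to choose the members, so its rank is set by the choice. The count is a description, with no share over all genes beside it. Npr1, the receptor of atrial natriuretic peptide, led with 68.7 CPM against 5.95 in the Tom- library (log2 3.53, 3.42 to 3.63) and 84.6 against 6.42 in the Tom+ library (log2 3.72, 3.59 to 3.85). The 20 highest further held Hecw2, Kit, Oit3, Plcb4, Sox17, Exoc3l, Rasip1, Cd55, Myzap, Sema6a, Arhgef15, Egfl7, Cyp4b1, Tmem132e, Kcnq1, Rapgef3, Shank3, Plpp1 and ENSMUSG00000117975. Sox17, an endothelial transcription factor, had log2 differences of 3.47 and 3.69, and Oit3, a zona pellucida domain protein on the sinusoidal list, of 3.69 and 3.47.

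**Figure D1:**
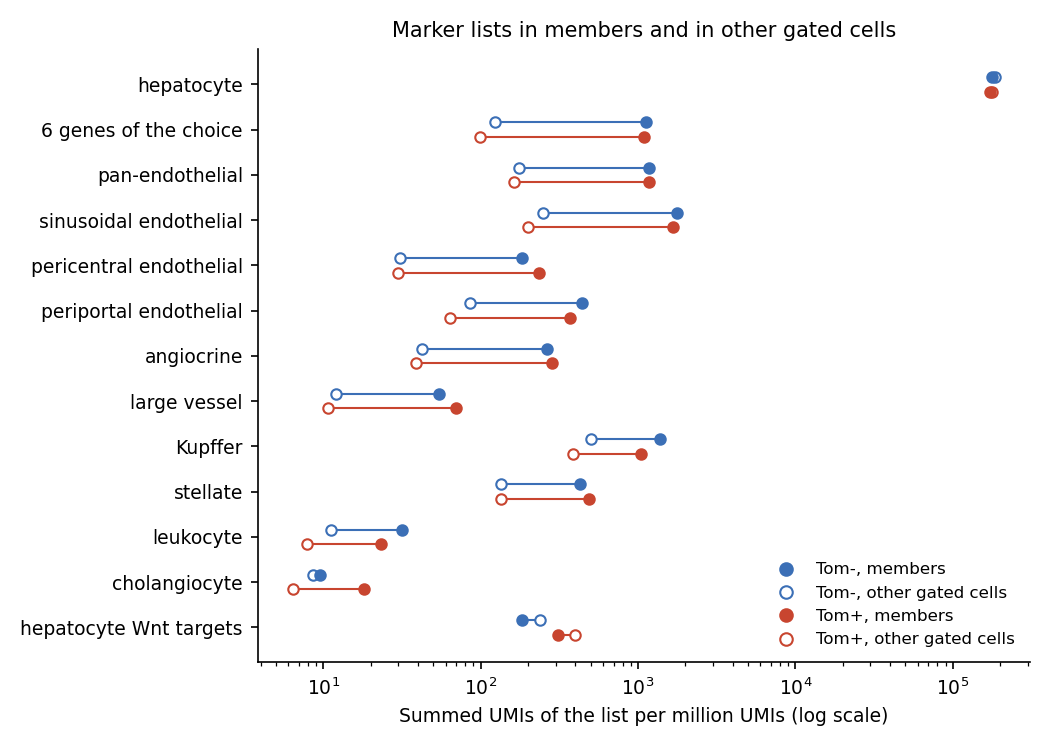
Summed level of each marker list in members (filled) and other gated cells (open), in CPM on a log scale, for the Tom- library (blue) and the Tom+ library (red). The hepatocyte list lies between 173487 and 184672 CPM in all sums, while the pan-endothelial list lies at 1174 and 1177 CPM in members against 175 and 162 CPM in other cells.

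Markers of other kinds of endothelium were mixed. Lymphatic markers were close to absent, with 5 UMIs in the Tom- and 2 in the Tom+ members. A list of large-vessel and capillarisation genes was higher in members, at 54.6 against 12.0 CPM and 69.6 against 10.7 CPM. Most of that sum came from Gja4, a connexin of arterial endothelium, and Plvap, which forms the diaphragms of endothelial pores. Vwf, the clotting factor of large-vessel endothelium, stayed at 0.659 and 0.413 CPM in members. All 28 UMIs of Sema3g in the Tom+ members lay in 1 cell, so its level says nothing of the others.

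Markers of other cells moved with the endothelial genes, but less. The Kupffer cell list (11 genes) was at 1380 against 505 CPM (Tom-) and 1040 against 389 CPM (Tom+), log2 1.45 and 1.42. For stellate cells (12 genes) the sums were 427 against 136 CPM and 485 against 135 CPM, log2 1.65 and 1.85. Leukocyte genes summed to 31.6 against 11.2 CPM and 23.1 against 7.87 CPM, and cholangiocyte genes to 9.56 against 8.61 CPM and 18.0 against 6.39 CPM. One Tom+ member held 101 of the 131 cholangiocyte UMIs, and without the highest member of each library that list stood at 6.93 (Tom-) and 4.15 CPM (Tom+). Of the defining markers, Clec4f (Kupffer) stood at 170 and 136 CPM in Tom- and Tom+ members, and Dcn (stellate) at 72.8 and 84.6 CPM. Above the 99th percentile of the other cells of their library lay 30 Tom- members (7.33%) and 13 Tom+ members (6.81%) for the Kupffer list, and 28 (6.85%) and 19 (9.95%) for the stellate list. By the terciles described below, these made up 1.32% of periportal and 11.8% of pericentral Tom- members for the stellate list, and 0% and 15.2% of the Tom+ members. For the Kupffer list the shares were 0.662% and 5.26%, with 13.7% in the middle tercile, and 0% and 8.08%, with 8.93% in the middle tercile. The part of these cells in the results below was not tested, and values with few of their UMIs are given where they bear.

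The low end of the same order held 2 hepatocyte targets of Wnt signalling, Axin2 and Tbx3. No gene was at least 2-fold lower in the members of both libraries, 0 of 8359 (0.0%). The 10 lowest genes were Akap5, Ces2c, Tbx3, Adam11, Exph5, Axin2, Cyp2d9, Gstm3, Aspg and Arhgef37. Axin2, a feedback inhibitor of the Wnt pathway, was at 27.6 against 39.5 CPM in the Tom- library (log2 -0.52, -0.66 to -0.38) and 55.9 against 75.0 CPM in the Tom+ library (log2 -0.42, -0.57 to -0.28). Tbx3, a transcription factor, differed by -0.49 and -0.45, and Lgr5, the R-spondin receptor, by -0.48 and -0.67. The list of 10 Wnt targets summed to 183 against 239 CPM and 309 against 396 CPM.

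These targets are themselves graded along the lobule, and the members were not matched to the other cells for zone. Within the pericentral tercile described below, the target list stood at 497 CPM in the Tom- members against 652 in the other cells and at 492 against 654 in the Tom+ library. The hepatocyte genes that mark the pericentral end were lower there too, at 5852 against 7138 CPM and 6210 against 7825 CPM. Those of the periportal end were not higher there, at 5726 against 5755 CPM and 4515 against 4779 CPM. They were lower in members of the periportal tercile, at 18517 against 21073 CPM and 19463 against 21139 CPM. In the middle tercile they were lower too, at 10537 against 12298 CPM and 10097.5 against 11306 CPM. Whether members and other cells of the same tercile lie at the same zone was not tested. In quintiles of the score the target list was lower in members in each of the 5 quintiles of both libraries. It was at 161 against 235 CPM (Tom-) and 161 against 222 CPM (Tom+) in the third, at 343 against 418 and 336 against 364 CPM in the fourth, and at 670.5 against 842 and 594 against 807 CPM in the fifth. The hepatocyte genes of the pericentral end were also lower in members in the second to the fifth quintile, at 2014 against 2636 and 2280 against 2811 CPM in the third and at 7306 against 8675 and 7292 against 9274 CPM in the fifth. In the first quintile they were higher in members, at 536 against 507 and 831 against 723 CPM, where the targets stood at 66.0 (56.2 to 77.0) against 73.5 and 68.2 (50.8 to 89.7) against 78.0 CPM. Whether the quintiles match members and other cells for zone was not tested either. Nkd1, a further inhibitor of the pathway, went the other way over all members, at 7.05 against 2.07 CPM and 8.54 against 2.64 CPM. Glul, the glutamine synthetase of the hepatocytes next to the central vein, differed by library, with 35.5 against 33.5 CPM (log2 0.08, -0.04 to 0.21) in the Tom- and 66.4 against 111 CPM (log2 -0.74, -0.87 to -0.61) in the Tom+ library. Slc1a2, a glutamate transporter of those hepatocytes, had log2 differences of -0.27 and -1.65. The difference between libraries was not tested.

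Each gated cell was placed along the lobule by its hepatocyte genes alone. The zone score compared 10 pericentral genes, among them Cyp2e1 and Glul, with 10 periportal genes, among them Pck1 and Hal. Terciles of the score, cut on the gated cells that were not members, were called periportal, middle and pericentral. Tom- members fell 151 into the periportal, 182 into the middle and 76 into the pericentral tercile, and Tom+ members fell 36, 56 and 99. The pericentral share was 18.6% of the Tom- members against 18.8% of the other Tom- cells, and 51.8% of the Tom+ members (44.5 to 59.1%) against 49.6%. Members therefore came from all zones. In the Tom- library the middle tercile was somewhat more frequent among members than among other cells, 44.5% (39.6 to 49.5%) against 38.5%, and the periportal tercile less, 36.9% (32.2 to 41.8%) against 42.6%. In the Tom+ library the corresponding shares were 29.3% against 27.5% and 18.8% against 22.9%, each within the interval of the members' share.

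Endothelial zone genes followed the hepatocyte zone of the profile in both libraries. The pericentral endothelial list (Wnt2, Wnt9b, Rspo3, Kit, Thbd, Cdh13, Fabp4, Ptgs1, Dkk3 and Lhx6) went from 98.7 CPM in periportal through 201 in middle to 315 CPM in pericentral Tom- members, a log2 difference of 1.68 (1.52 to 1.83). In the Tom+ members it went from 119.6 through 170.0 to 326 CPM, 1.45 on the log2 scale (1.22 to 1.68). The periportal endothelial list (Dll4, Efnb2, Ltbp4, Msr1, Ntn4, Adgrg6, Adam23 and Jag1) ran in the opposite direction, from 565 through 418 to 252.5 CPM in Tom- members (log2 -1.16, -1.28 to -1.04) and from 529 through 408 to 281 CPM in Tom+ members (log2 -0.91, -1.05 to -0.78). Neither list entered the choice of members or the zone score.

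General endothelial genes showed little such slope. Between the same terciles the pan-endothelial list differed by 0.06 (Tom-) and 0.23 (Tom+) on the log2 scale and the sinusoidal list by 0.02 and -0.02. In the other gated cells these lists differed by 0.08 and 0.02 and by -0.12 and -0.24. The members had all passed 1 cutoff on the 6 genes of the choice, so the slope of those genes in members is set by the choice and says nothing. In the other gated cells those 6 genes differed by -0.19 and -0.31. Within members the pan-endothelial and sinusoidal genes together followed the share of the 6 genes, with a rank correlation of 0.69 and 0.63. The cutoff thus also limits what their small slope in members can show. The other gated cells, with far fewer endothelial UMIs, had a smaller slope for the pericentral list in both libraries and for the periportal list in the Tom- library. Their pericentral list rested at 20.9 CPM in periportal and 43.3 CPM in pericentral Tom- cells (log2 1.05) and at 18.0 and 36.0 CPM in Tom+ cells (log2 1.00). Their periportal list differed by -0.57 (Tom-) and by -0.85 (Tom+, -0.88 to -0.81), the latter within the interval of the Tom+ members.

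Counted by gene, 10 of the 10 pericentral genes were higher in pericentral members of both libraries, 8 of them by at least 1.5-fold with at least 20 UMIs in each library. Over all genes with 20 UMIs, 7.13% of 10131 were as much higher, and among 429 genes at least 4-fold higher in members with at least 40 UMIs there, 73 (17.0%) were. Of the 8 periportal genes, 6 were lower in pericentral members of both libraries, 4 of them by at least 1.5-fold, against 2.5% of the 10131 genes and 8 (1.86%) of the 429. The counts by direction alone have no share over all genes beside them and are a description. Both lists were chosen with earlier results of these data known. The median log2 difference over the pericentral list was 2.29 and 2.57, or 2.24 in the Tom+ library with genes at no UMI set at a floor of 3 UMIs. For the periportal list it was -1.10 and -0.74, or -0.90 in the Tom+ library without Adgrg6. Over the 429 genes the medians were 0.28 and 0.31, and over all 10131 they were 0.13 and 0.18.

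The Wnt ligands were among the steepest genes. Wnt2 (mm10 chr6:17988940-18030585, minus strand) had 5.53, 16.1 and 28.5 CPM in periportal, middle and pericentral Tom- members, a log2 difference of 2.37 (1.75 to 3.02). In Tom+ members the levels were 3.96, 12.2 and 34.8 CPM (log2 3.14, 1.97 to 4.61). The level was higher at each step toward the central vein in both libraries. Wnt9b (chr11:103727364-103749821, minus strand) was rarer, with 4, 9 and 21 UMIs in the 3 Tom- terciles (0.714, 1.30 and 7.88 CPM, log2 3.46). In the Tom+ library it had no UMI in periportal members, then 8 and 43 UMIs. Its pericentral level was 6.15-fold above a floor of 3 UMIs (1.98 CPM) for the periportal members. Both ligands were thus highest in the pericentral members of each library.

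Wnt2 was found in 31.5% of Tom- and 35.1% of Tom+ members against 6.20% and 7.25% of the other gated cells. The other gated cells were not separated by cell type, so these shares are no measured background of hepatocytes. With every cell at 10000 UMIs the shares were 12.2% and 16.2% against 1.73% and 1.65%. Wnt9b was found in 6.11% and 13.1% of members against 1.40% and 2.22% of other cells. No member held more than 7.69% of the Wnt2 UMIs of its library, so the level did not rest on 1 cell.

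Rspo3 (chr10:29452416-29535867, minus strand), which strengthens Wnt signalling, went from 1.07 through 7.39 to 13.1 CPM in Tom- members (log2 3.62) and from 3.30 through 2.25 to 14.7 CPM in Tom+ members (log2 2.16, 0.84 to 3.84). The slope was not seen in members with little stellate RNA. Among the members at or below the median stellate share of their library, Rspo3 had no UMI in either end tercile of the Tom- library, and 4 UMIs in periportal against 3 in pericentral Tom+ members (log2 -0.43, -3.20 to 2.13). Wnt2 kept its slope in those members, with log2 differences of 2.33 and 2.06.

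Surface genes of the pericentral endothelium ran the same way. Thbd (chr2:148404466-148408188, minus strand) encodes thrombomodulin, an endothelial anticoagulant receptor, and stood at 16.8, 37.2 and 79.2 CPM in the Tom- terciles (log2 2.24, 1.88 to 2.61) and at 15.9, 37.4 and 88.1 CPM in the Tom+ terciles (log2 2.47, 1.87 to 3.14). For Kit (chr5:75574916-75656722, plus strand), a receptor tyrosine kinase, the levels were 17.7, 38.7 and 64.9 CPM (log2 1.88, 1.51 to 2.25) and 33.7, 36.1 and 51.6 CPM (log2 0.61, 0.16 to 1.09). The Tom+ slope was not seen in members with little RNA of other cells. It was 0.29 (-0.29 to 0.88) at or below the median stellate share, 0.17 (-0.49 to 0.86) at or below the median Kupffer share, and -0.32 (-2.41 to 1.40) without a stellate UMI, where the Tom- slope was 2.25, 1.43 and 2.39. Kit was found in 60.1% and 66.5% of members against 9.11% and 9.27% of other cells. Cdh13 (chr8:118283733-119324921, plus strand), an atypical cadherin, went from 0.892 to 10.1 CPM in Tom- members, and from no UMI to 38 UMIs in Tom+ members. The latter level was 5.43-fold above the floor of 3 UMIs, and the interval of its ratio started at log2 2.07.

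The other genes of that list were weaker or rarer. Ptgs1, cyclooxygenase-1, had log2 differences of 1.27 (0.96 to 1.59) and 0.85 (0.41 to 1.32). Fabp4, a fatty acid binding protein, reached only 0.31 (-0.08 to 0.70) and 0.54 (0.03 to 1.07). Lhx6, a homeobox factor, had 3 UMIs in periportal and 20 in pericentral Tom- members (log2 3.81) and 2 and 37 in Tom+ members (log2 2.99). Dkk3 had 2, 12 and 5 UMIs in the Tom- and 0, 1 and 7 in the Tom+ terciles.

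At the portal end, the Notch ligand Dll4 (chr2:119325784-119335962, plus strand) stood at 55.0, 33.0 and 22.1 CPM from periportal to pericentral Tom- members (log2 -1.31, -1.74 to -0.91) and at 56.2, 33.4 and 20.1 CPM in Tom+ members (log2 -1.48, -1.96 to -1.01). Among the members at or below the median stellate share the Tom- difference was smaller, at -0.53 with an interval that reaches 0 (-1.13 to 0.02), and the Tom+ difference was -2.10 (-2.95 to -1.32). In members without a stellate UMI it was -0.14 (-2.06 to 1.28) and -1.26 (-3.25 to 0.29). Its slope in the other gated cells was no smaller than in all members, at -1.55 and -1.84. Efnb2 (chr8:8617434-8661242, minus strand), the ephrin of arterial endothelium, went from 49.3 through 24.8 to 10.5 CPM (log2 -2.23) and from 35.0 through 28.9 to 11.9 CPM (log2 -1.56). Msr1, a scavenger receptor, differed by -1.10 and -1.03, and Ltbp4, a binding protein of latent TGF-beta, by -1.11 and -0.90. Ltbp4 gave 1551 of the 3168 UMIs of the list in the periportal Tom- members. Kupffer cells also express Msr1. In the members at or below the median Kupffer share its log2 differences were -2.20 and -0.99.

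Less even were the remaining periportal genes. Adam23, a surface protein of the disintegrin family, stood at 95.5, 68.1 and 45.4 CPM in Tom- and 74.7, 50.1 and 49.9 CPM in Tom+ terciles, where the middle and pericentral values lay within counting error of each other. Ntn4, a netrin, had log2 differences of -0.79 (-1.49 to -0.14) and -0.56 (-1.68 to 0.62). Jag1, a further Notch ligand, showed -0.10 and 0.40 with intervals that include 0, and 1 cell held 30.3% of its Tom+ UMIs. Adgrg6 was too rare, with 15, 9 and 1 UMIs in the Tom- and 0, 3 and 2 UMIs in the Tom+ terciles.

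**Figure D2:**
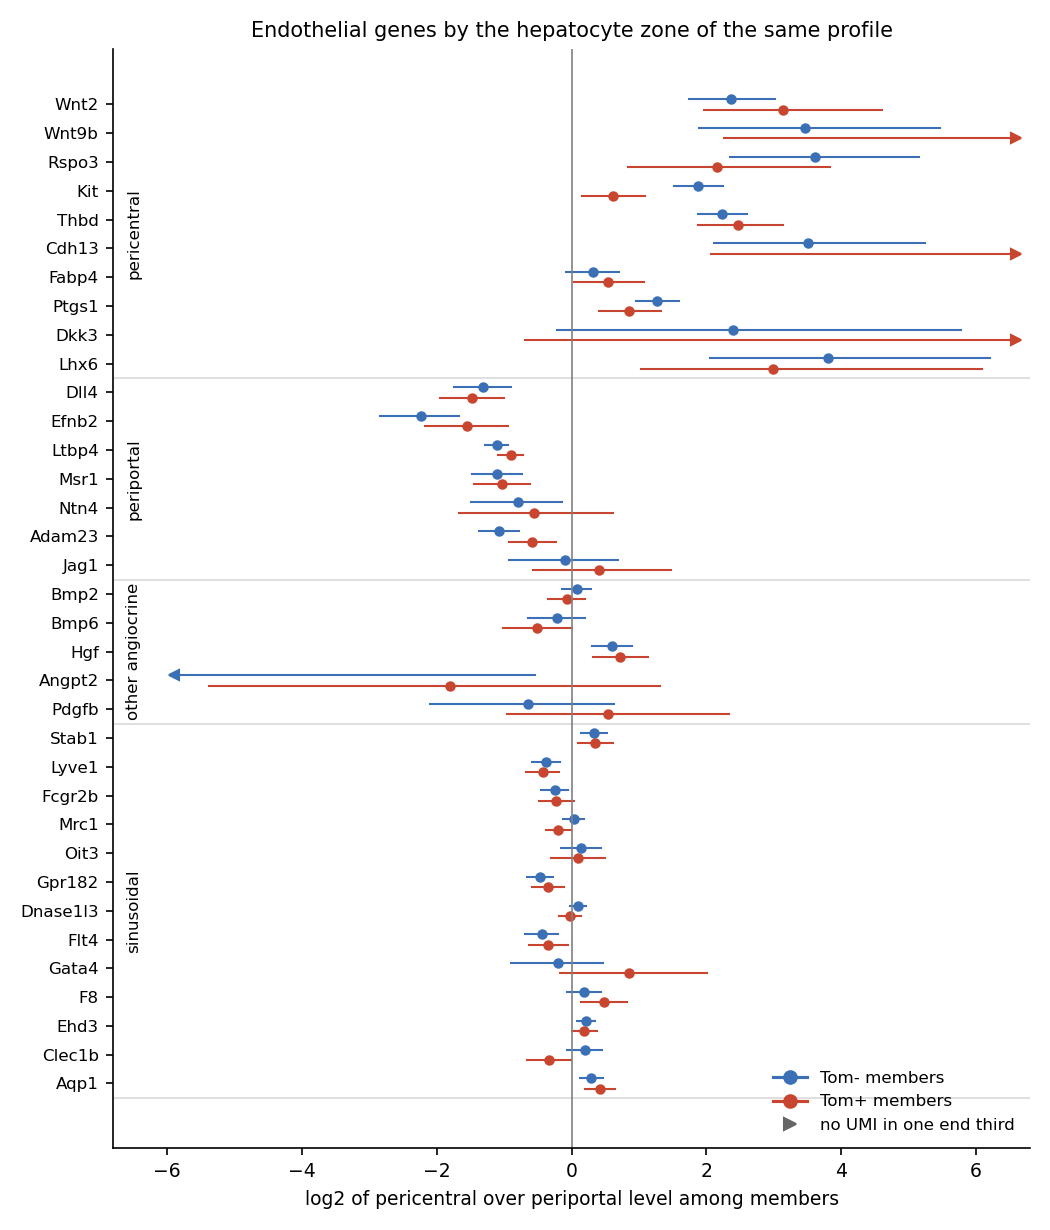
Log2 ratio of the level in pericentral over periportal members for each endothelial gene, grouped by list, in the Tom- library (blue) and the Tom+ library (red). Bars are 95% counting intervals and arrows mark genes without a UMI in one end tercile. Wnt2 lies at 2.37 and 3.14 and Dll4 at -1.31 and -1.48, while Bmp2 lies at 0.07 and -0.07.

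Angiocrine factors, the signals by which endothelium acts on hepatocytes, did not share 1 slope. As a list of 11 measured genes they were at 262 against 42.7 CPM in Tom- members and other cells, and at 284 against 38.8 CPM in the Tom+ library. Bmp2, the ligand that drives hepcidin in hepatocytes, was level along the axis, with 97.97, 111 and 103 CPM in Tom- (log2 0.07, -0.14 to 0.29) and 108, 111 and 102 CPM in Tom+ members (log2 -0.07, -0.35 to 0.20). The related ligand Bmp6 differed by -0.22 (-0.64 to 0.20) and by -0.52 with an interval that reaches 0. Hgf, the hepatocyte growth factor that stellate cells also make, was higher in pericentral members, at 61.9 against 40.7 CPM (log2 0.61, 0.31 to 0.90) and 69.7 against 42.3 CPM (log2 0.72, 0.32 to 1.14). Angpt2, the antagonist of the Tek receptor, had 13, 23 and 0 UMIs in the Tom- terciles and 3, 5 and 2 UMIs in the Tom+ terciles. Its periportal Tom- level was 2.06-fold above the floor of 3 UMIs for the pericentral members. Pdgfb had -0.64 and 0.54 with intervals including 0, Edn1 had 1 and 5 UMIs in all members, and Nos3 was not measured.

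Sinusoidal receptors were graded only weakly. Lyve1, the hyaluronan receptor, was lower in pericentral members by -0.38 (-0.59 to -0.17) and -0.43 (-0.67 to -0.18) on the log2 scale. Gpr182, an endothelial chemokine scavenger, differed by -0.47 and -0.35, and Flt4, the VEGF-C receptor, by -0.44 and -0.34. Stab1, a scavenger receptor, was slightly higher, by 0.33 and 0.35. Larger were the slopes of Gja4, with 12.3, 23.3 and 35.3 CPM (log2 1.52) and 12.6, 21.2 and 47.9 CPM (log2 1.93), and of Plvap (log2 1.97 and 1.68). Cd34, a sialomucin of capillary endothelium, ran toward the portal end in the Tom- library (log2 -1.66, -3.19 to -0.42), and in the Tom+ library its interval included 0 (-0.74, -2.01 to 0.60).

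Beyond the lists, the steepest genes among those at least 4-fold higher in members were named by rank. At the pericentral end these were Cdh13, Nr1h5, Il13ra2, Wnt2, Thbd, H2-Aa, Slc26a10 and Pdgfrb. Il13ra2, a decoy receptor of interleukin 13, differed by 2.43 and 3.24, and Slc26a10, an anion transporter family member, by 3.03 and 1.92. Nr1h5, a nuclear receptor, had 9 UMIs in periportal and 28 in pericentral Tom- members, and 0 and 40 in Tom+ members. The latter level was 5.72-fold above the floor of 3 UMIs, and the interval of its ratio started at log2 2.15. Pdgfrb is a stellate and pericyte receptor, and H2-Aa a class II molecule of antigen-presenting cells. The portal end was led by Esm1, a secreted proteoglycan of endothelial cells, with 41.6, 33.2 and 6.003 CPM in Tom- (log2 -2.79, -3.62 to -2.06) and 62.1, 40.6 and 17.8 CPM in Tom+ members (log2 -1.80, -2.28 to -1.32). In the other gated cells Esm1 differed by -1.45 and -2.13. Chst2, a sulfotransferase, followed with -2.03 and -1.48, then Dll4, Kcnj2, Msr1, Ltbp4, Lama4 and Cyp4b1.

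Cut into quintiles of the zone score, the lists moved step by step in the Tom- library. The pericentral list was at 69.7, 126, 211, 302 and 314 CPM from the portal to the central quintile of 64, 132, 111, 74 and 28 members. The periportal list was at 590, 532, 391, 302 and 241 CPM. In the Tom+ library the first quintile held only 16 members. There the pericentral list was at 89.7, 151, 127, 219 and 429 CPM and the periportal list at 557, 541, 330, 345 and 248 CPM, so each had a step against its trend in the middle.

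**Figure D3:**
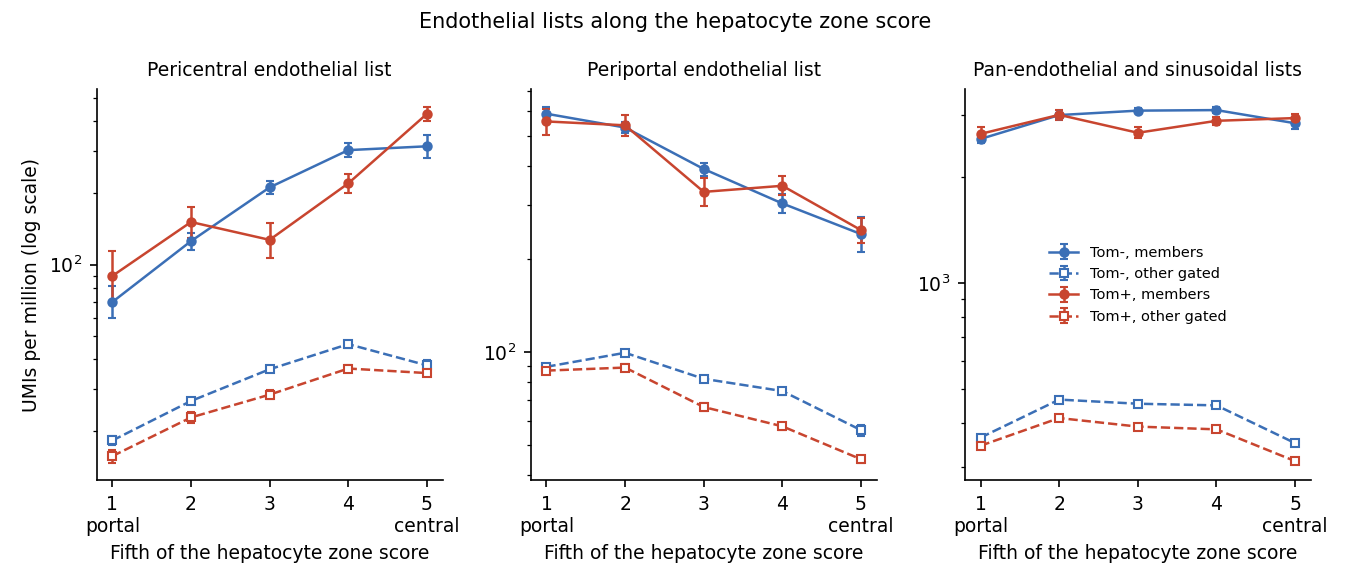
Level of the pericentral, periportal, and joint pan-endothelial and sinusoidal lists (CPM, log scale) in quintiles of the hepatocyte zone score, for members (filled, solid) and other gated cells (open, dashed) of the Tom- (blue) and Tom+ (red) libraries, with 95% counting intervals. The pericentral list climbs from 69.7 to 314 CPM in Tom- members and from 89.7 to 429 CPM in Tom+ members, the periportal list goes from 590 to 241 and from 557 to 248 CPM, and the joint list stays nearly flat.

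The relation could also be read in single profiles. An endothelial index, the log2 of pericentral over periportal list UMIs with 1 added to each, correlated with the zone score over cells with a Spearman's rho of 0.59 in the 409 Tom- members and 0.55 in the 191 Tom+ members. In the other gated cells it was 0.17 and 0.19. The cells of a library share their source and are not replicates, and other cells had a median of only 1 and 0 pericentral list UMIs. More pericentral than periportal endothelial UMIs were carried by 6.62% of periportal, 23.6% of middle and 55.3% of pericentral Tom- members. In the Tom+ library the shares were 11.1%, 19.6% and 54.5%. The lists rest on different genes and probes, so the point at which their UMIs are equal has no meaning of its own. These shares therefore compare terciles only and do not say which endothelium a single profile carried.

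**Figure D4:**
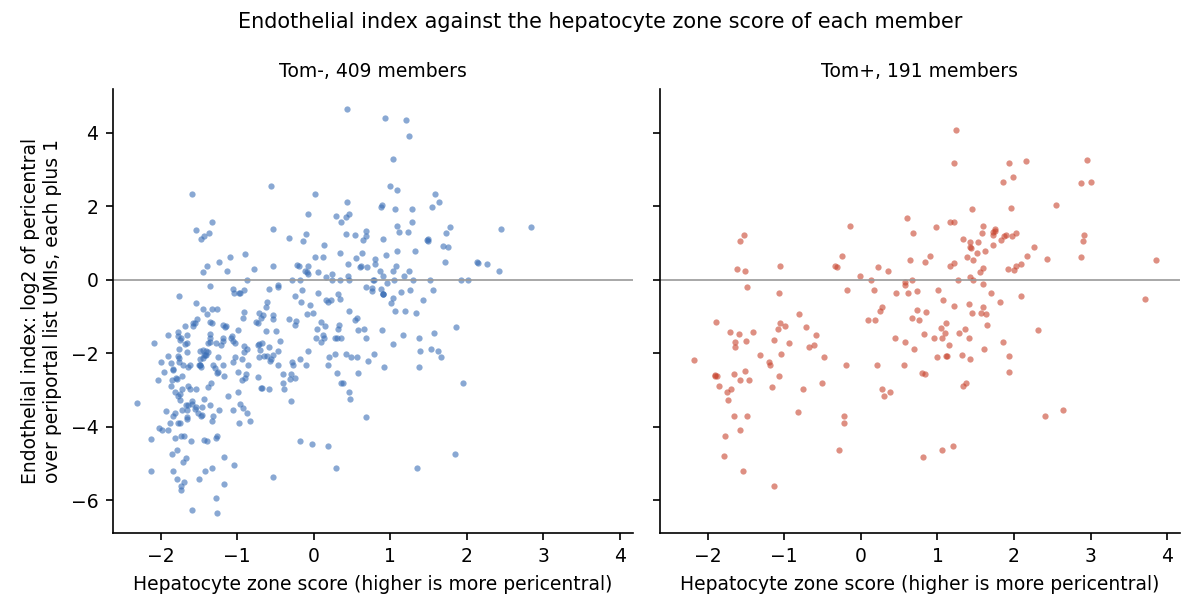
Endothelial index of each member against its hepatocyte zone score, which is higher toward the central vein, in the Tom- (left) and Tom+ (right) library. Each point is 1 profile, Spearman's rho over the points is 0.59 and 0.55, and the points above 0 gather on the right.

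Further down the ranking, both lists had smaller slopes than in members from rank 2401 (Tom-) and from rank 4801 (Tom+) on. The Tom- periportal slope was smaller from rank 601 on. From rank 601 to 2400 the Tom+ slopes were larger than those of the members, 1.45 (1.22 to 1.68) and -0.91 (-1.05 to -0.78). The pericentral list kept a slope in every band. The pericentral list differed by 1.54 (1.35 to 1.74) in Tom- and 2.04 (1.79 to 2.30) in Tom+ cells among ranks 601 to 1200. Among ranks 1201 to 2400 it differed by 1.69 (1.56 to 1.83) and 1.82 (1.67 to 1.98). Among ranks 2401 to 4800 it differed by 1.37 (1.24 to 1.504) in Tom- and by 1.49 (1.34 to 1.65) in Tom+ cells, and the periportal list by -0.60 (-0.69 to -0.50) and -0.94 (-1.03 to -0.85). For ranks 9601 to 21046 the difference was 0.64 (0.51 to 0.78) and 0.62 (0.49 to 0.75). The periportal list differed by -0.997 (-1.15 to -0.84) and -1.10 among ranks 601 to 1200 and by -0.96 and -1.05 among ranks 1201 to 2400. In the lowest band it differed by -0.03 (-0.12 to 0.05) in Tom- and by -0.13 (-0.20 to -0.05) in Tom+ cells. Over the same bands the pan-endothelial and sinusoidal genes together went from 2956 to 193.5 CPM in Tom- and from 2858 to 172 CPM in Tom+ cells.

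**Figure D5:**
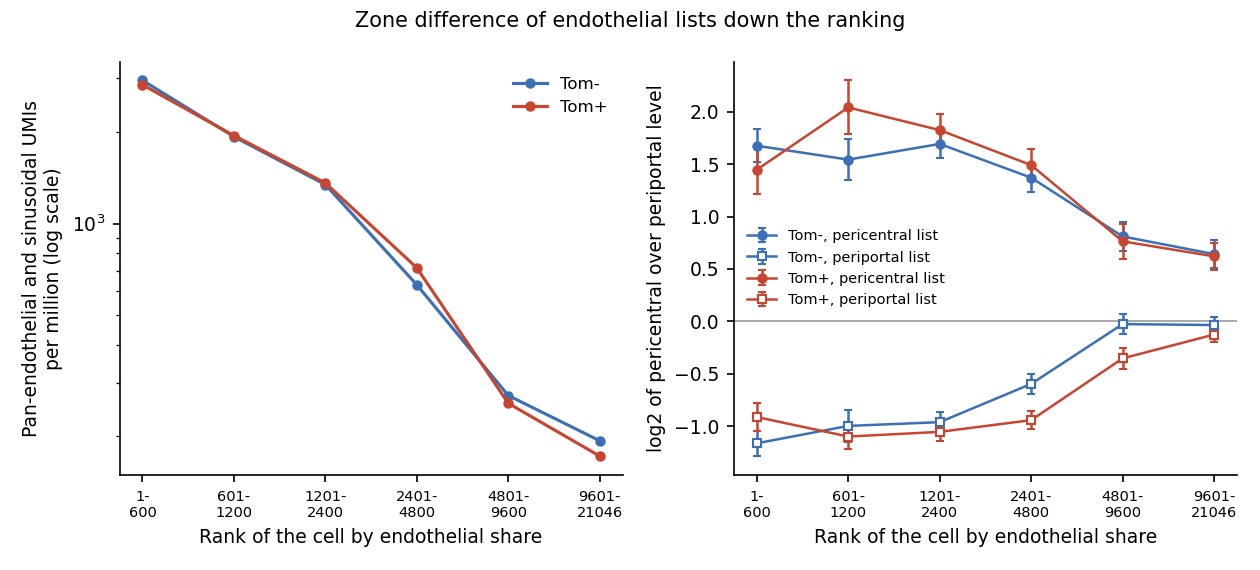
Left, summed pan-endothelial and sinusoidal level (CPM, log scale) in bands of the ranking by endothelial share. Right, log2 of the pericentral over the periportal level of the pericentral (filled) and periportal (open) endothelial lists in each band, with 95% counting intervals, for Tom- (blue) and Tom+ (red). In the last band the pericentral list lies at 0.64 and 0.62 and the periportal list at -0.03 and -0.13.

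Stellate RNA had a slope of its own in the members. Its list went from 119 through 609 to 601 CPM in the Tom- terciles (log2 2.34) and from 93.8 through 391 to 712 CPM in the Tom+ terciles (log2 2.92), steeper than in the other cells (1.37 and 1.51). The Kupffer list differed by 0.92 and 0.44. Among the members at or below the median stellate share, the pericentral endothelial list still differed by 1.78 (1.54 to 2.02) in Tom- and by 0.89 (0.60 to 1.19) in Tom+ members, and the periportal list by -1.17 and -1.34. Of the members without any stellate UMI, 54 in the Tom- and 25 in the Tom+ library, only 3 and 6 were pericentral, and the intervals of Wnt2, Thbd, Dll4, Efnb2 and Msr1 included 0 in both libraries. The pericentral list then differed by 1.02 (0.17 to 1.78) in the Tom- library, while in the Tom+ library the interval included 0 (0.30, -0.52 to 1.07). Their periportal list differed by -1.49 and -0.64.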

How the data were processed

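Per the labels and the study's methods, hepatocytes were fixed in the tissue, dissociated, sorted by tdTomato and profiled with a fixed-RNA probe assay (10x Flex) that carried 3 custom tdTomato probe pairs. The authors counted UMIs per gene and barcode with Cell Ranger 7.2.0 against mm10, and the deposited values are raw UMI counts for each of 2 libraries, 681279005 UMIs in 23220 barcodes (Tom-) and 715333889 in 16339 (Tom+). Probe sets differ between genes, so levels were compared within a gene or list and not between genes. The exception is the endothelial index, with its shares, which sets the pericentral against the periportal list and is read only along the zone score. The study had removed clusters with few genes or with Ptprc, Dcn or Pecam1, which was not done here. No doublet caller was run.

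The counts of all members of a library, or of a tercile, were summed and expressed per 1000000 UMIs (CPM; Python 3.11.15, numpy 2.4.6, scipy 1.17.1, pandas 2.3.3, figures with matplotlib 3.10.9). Ratios have exact conditional Poisson intervals and shares exact Clopper-Pearson intervals, all at 95% and for counting error only. Genes were counted in the list comparisons at 10 CPM or more in either sum in both libraries, and by zone at 20 UMIs or more over both end terciles. Where counts over all genes needed a ratio, 0.5 UMI was added to each sum. The floor for a gene without UMIs was 3 UMIs over the summed cells. A fold over it takes the other count as exact, so it is not a limit of a 95% interval. Zone terciles and quintiles were cut on the gated cells of both libraries together that were not members, and cells were thinned with a fixed seed.

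Named genes were all genes of the pericentral, periportal and angiocrine endothelial lists, the 20 highest and 10 lowest member ratios by the lesser of the 2 libraries, and, among genes at least 4-fold higher in members with 40 UMIs in each library, the 8 steepest toward each end. Genes of the other lists were examples. Members and lists were chosen with earlier results of these data known. Gene positions are those of the GENCODE annotation of mm10. The ratio script was tested on simulated data. Alternatives covered the number and choice of members, the depth, the markers of other cells, the cut of the zones and the gene minimum. With 1 library in each group no test was made between Tom- and Tom+ cells, and their values are given side by side. The levels without the highest member were computed after seeing the data. No sequence is printed because no measurement here bears on one.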

Additional observations from a re-analysis of the deposited data

Results flagged for a closer look

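For 3 hepatocyte genes, members differed from other gated cells in opposite directions in the 2 libraries, and the difference between libraries was not tested. They were flagged by their counting intervals alone, which take no account of the spread between cells, and the differences are small. Ahsg (fetuin-A) differed by -0.049 on the log2 scale in the Tom- and by 0.018 in the Tom+ library. For Slc10a1, the bile acid importer, the values were 0.14 and -0.15. Ttr (transthyretin) differed by 0.0055 and -0.018.

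Cells over 100000 UMIs lay outside the gate, 360 in the Tom- and 1239 in the Tom+ library, and also carried endothelial zone genes. Between their pericentral cells (23 and 442) and periportal cells (119 and 247), the pericentral endothelial list differed by 0.79 (0.52 to 1.05) and 1.32 (1.203 to 1.436) on the log2 scale, and the periportal list by -1.06 and -0.85.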

How the results depend on the processing

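The pericentral and periportal endothelial lists kept their direction in both libraries under all 17 alternatives tried, with log2 differences from 1.02 to 1.81 (Tom-) and 0.30 to 1.77 (Tom+) for the pericentral list and from -1.49 to -0.66 and -1.34 to -0.47 for the periportal list. No paired analysis was possible because the labels number no replicates and Tom- and Tom+ have 1 library apiece. For the same reason no replicate could be left out. The cause of the changes below was not tested. Values are given for Tom- and then Tom+, on the log2 scale unless stated.

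The count of 558 genes at least 2-fold higher in members, of 8359 tested, was 106 at a minimum of 50 CPM and 2171 without one. The minimum also changes how many genes are tested, so these counts cannot be compared as shares. The pan-endothelial and sinusoidal genes together differed by 2.80 and 2.98 between members and other cells. With 300 members they differed by 2.98 and 3.26, with 1200 by 2.70 and 2.83, with 300 of each library by 2.89 and 2.89, and ranked on the pan-endothelial list, which these genes include, by 2.89 and 3.005. In cells of 20000 to 60000 UMIs the values were 2.89 and 3.12, without members rich in Kupffer, leukocyte or stellate markers 2.73 and 2.88, as a mean over cells 2.92 and 3.12, and thinned to 10000 UMIs 2.83 and 3.05.

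The hepatocyte list was near 0 throughout, and with 1200 members it turned in the Tom+ library (-0.030 and 0.00051). It was -0.076 with 300 members (Tom-), -0.060 and -0.018 with 300 of each library, -0.078 and -0.043 ranked on the pan-endothelial list, -0.018 and -0.023 in cells of 20000 to 60000 UMIs, -0.024 and -0.016 without members rich in other markers, -0.055 and -0.045 as a mean over cells, and -0.048 and -0.021 when thinned. Members were 4.55% and 2.73% of cells of 20000 to 60000 UMIs. With terciles cut within each library 35.7% and 33.5% of members were pericentral.

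The pericentral list differed by 1.48 and 1.13 without members rich in other markers, by 1.22 and 1.196 with 2 zones in place of 3, and by 1.02 and 0.30 in members without a stellate UMI. In Tom+ members alone it moved to 1.77 with 1200 members, to 1.72 with terciles within the library, to 1.77 when thinned and to 0.89 in the lower part of the stellate share. The periportal list differed by -0.66 and -0.71 with 2 zones and by -1.49 and -0.64 without a stellate UMI. In Tom- members it moved to -1.30 ranked on the pan-endothelial list, to -0.89 with terciles within the library and to -1.32 with the level of other cells subtracted, and in Tom+ members to -1.198 without members rich in other markers, to -0.47 when thinned, to -1.34 in the lower part of the stellate share and to -1.12 in that of the Kupffer share. Single-gene values without a finite ratio were left out, among them all of Wnt9b, Cdh13, Dkk3 and Adgrg6 in the Tom+ library. Left out too was Wnt9b in Tom- members without a stellate UMI, with 1 periportal and 0 pericentral UMIs. Of the 522 values of single genes counted under alternatives, 18 had the other sign. Jag1 gave 12 of these (up to 1.32 in Tom-, down to -0.74 in Tom+) and Ntn4 gave 1 (0.09 in Tom+), with reported intervals that already include 0. For the other 5 the reported interval did not include 0. In members without a stellate UMI these were Adam23 (0.37), Fabp4 (-1.54) and Kit (-0.32) in the Tom+ and Ptgs1 (-0.23) in the Tom- library, and in the lower part of the stellate share Rspo3 (-0.43) in the Tom+ library. The settings by stellate and Kupffer share and one without shared barcodes were added after seeing the data.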

Other observations

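Profiles too small for the gate, with at least 2000 but under 5000 genes, were ranked in the same way, and their 600 highest were 451 Tom- and 149 Tom+ profiles with a median Alb of 105218 and 80188 CPM. Cdkn2a, the gene of p16 that drives the Tom label, was rare in the gated members, with 1.12 CPM against 0.316 in other Tom- cells (log2 1.83, 1.01 to 2.55) and 1.93 against 0.316 in Tom+ cells (log2 2.61, 1.71 to 3.40). It reached 5.43 CPM in the smaller Tom- and 5.42 CPM in the smaller Tom+ profiles. Those profiles held only 4235299 and 1106817 UMIs in all, so these levels rest on few Cdkn2a UMIs. A separate p16 entry of the probe set differed by 1.42 (0.61 to 2.13) and by 0.38 (-1.25 to 1.62). Cdkn1a, a further inhibitor of the cell cycle, differed by -0.09 and 0.05 between members and other gated cells. Cycling genes summed to 35.5 against 14.7 CPM (Tom-) and 38.7 against 11.8 CPM (Tom+).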
